A study of Mus musculus with 2 samples.

Results

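The Wnt ligands, receptors and inhibitors counted in ribosome-bound RNA of the mouse cerebral cortex comprised 48 of the 32531 genes listed in the count files. They were chosen by gene symbol, with earlier results of these data known. They were all Wnt, Fzd, Sfrp and Dkk genes, with Frzb, Lrp5, Lrp6, Ctnnb1, Axin1, Axin2, Lef1, Tcf7, Tcf7l1, Tcf7l2 and Apcdd1. By role they were 19 Wnt ligands, 10 frizzled receptors, 2 LRP co-receptors, 10 inhibitors, 3 genes of β-catenin and its Axin scaffold, and 4 TCF/LEF transcription factors.

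The mice were untreated adults of a transgenic line, Gdnf-EGFP/Rpl10a (ES2243), in which the ribosomal protein Rpl10a carries an EGFP tag and is made under regulatory sequences of Gdnf. Tagged polysomes were drawn from cortex homogenate with anti-EGFP antibodies and their RNA was sequenced, a method called translating ribosome affinity purification. There was 1 group of 2 immunopurified libraries, IP1 and IP2, and which cells made the tag follows the Gdnf construct of this single line. The labels do not say whether the libraries came from different animals or pools, and give neither sex nor exact age, so the spread between them may be technical. Unpurified cortex was not analysed here, so levels are not enrichments.

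Wnt proteins are secreted, lipid-modified signals. They bind a frizzled receptor together with LRP5 or LRP6, which stops a cytoplasmic complex built on Axin and APC from destroying β-catenin, and β-catenin then works in the nucleus with TCF/LEF factors. Frizzleds also signal without β-catenin, as in planar polarity. In the brain, Wnt7a and Wnt7b act on endothelial cells during vessel growth and barrier formation, with Adgra2 and Reck as cofactors.

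Reads counted in genes numbered 65200231 in IP1 and 72732502 in IP2. Values are counts scaled by this total to the usual CPM scale, with no division by gene length, so they compare a gene between libraries and do not order genes. An observed count of 0 allows up to 3 counts, or 0.046 CPM in IP1 against 0.041 CPM in IP2. All 8 pericyte and all 7 pan-mural marker genes reached 10 CPM in both libraries. So did all 5 pan-neuronal, all 7 oligodendrocyte precursor, 5 of 7 astrocyte and 8 of 8 fibroblast markers, while 1 of 9 endothelial and 0 of 7 microglial markers did. Pdgfra stood in both the fibroblast and the precursor list, and Cspg4 in both the pan-mural and the precursor list. The counted RNA was therefore that of several cell types, and a low level cannot tell fewer cells of a type from less RNA per cell.

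Sequence before the gene start is shown for frizzled genes that differed between the libraries, and for ligand and feedback genes to set beside them. Not every member that differed between the libraries is shown. The first lines hold the 250 bases before the start of Wnt4, a ligand gene counted in both libraries (chr4:137277385-137277634, plus strand), and of the 3 frizzled genes with the largest difference between the libraries among those with a RefSeq promoter window. These are Fzd9 (chr5:135251048-135251297, minus strand), Fzd4 (chr7:89404116-89404365, plus strand) and Fzd1 (chr5:4758217-4758466, minus strand). The last lines hold Axin2 (chr11:108920099-108920348, plus strand; the annotated gene begins further upstream), the negative feedback gene of the pathway, and Lef1 (chr3:131110047-131110296, plus strand), the most upstream of 4 starts. Sequences are from RefSeq on GRCm38.p6 and run 5′ to 3′. Capitals mark the TCF/LEF core CTTTGA and the GC box GGGCGG on either strand.
Wnt4: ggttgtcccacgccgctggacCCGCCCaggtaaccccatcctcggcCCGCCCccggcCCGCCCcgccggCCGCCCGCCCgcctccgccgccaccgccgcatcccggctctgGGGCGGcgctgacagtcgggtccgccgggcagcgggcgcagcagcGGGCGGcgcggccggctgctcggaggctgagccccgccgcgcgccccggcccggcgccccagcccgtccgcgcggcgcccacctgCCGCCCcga
Fzd9: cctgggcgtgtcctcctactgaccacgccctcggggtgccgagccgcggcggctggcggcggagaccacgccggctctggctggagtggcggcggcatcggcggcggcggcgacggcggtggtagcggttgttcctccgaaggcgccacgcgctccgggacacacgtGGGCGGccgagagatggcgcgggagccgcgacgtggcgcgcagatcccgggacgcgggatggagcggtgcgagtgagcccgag
Fzd4: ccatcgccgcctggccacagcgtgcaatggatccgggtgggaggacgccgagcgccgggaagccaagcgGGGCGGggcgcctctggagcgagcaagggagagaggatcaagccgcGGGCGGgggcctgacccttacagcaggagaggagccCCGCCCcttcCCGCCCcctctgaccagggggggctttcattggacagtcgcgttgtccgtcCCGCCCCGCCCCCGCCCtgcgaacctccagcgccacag
Fzd1: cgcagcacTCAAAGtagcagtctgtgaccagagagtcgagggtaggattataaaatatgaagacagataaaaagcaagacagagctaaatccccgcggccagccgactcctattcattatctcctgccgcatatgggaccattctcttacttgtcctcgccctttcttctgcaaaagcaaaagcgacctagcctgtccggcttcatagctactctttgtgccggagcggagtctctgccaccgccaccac
Axin2: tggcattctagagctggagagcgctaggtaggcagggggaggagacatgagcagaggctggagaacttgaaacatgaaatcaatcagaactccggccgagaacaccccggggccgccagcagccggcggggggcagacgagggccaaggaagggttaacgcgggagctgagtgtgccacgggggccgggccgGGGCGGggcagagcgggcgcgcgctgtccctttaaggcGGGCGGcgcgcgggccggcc
Lef1: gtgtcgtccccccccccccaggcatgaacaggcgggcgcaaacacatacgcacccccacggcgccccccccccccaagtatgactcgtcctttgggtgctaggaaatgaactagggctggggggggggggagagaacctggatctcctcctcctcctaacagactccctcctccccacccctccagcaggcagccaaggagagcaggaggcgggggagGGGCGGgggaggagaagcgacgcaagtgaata
The Fzd1 window had 1 TCF/LEF core, starting 242 bases before the gene start, and no GC box. The windows shown for Wnt4, Fzd4, Axin2, Fzd9 and Lef1 had no TCF/LEF core in these letters, and held 8, 7, 2, 1 and 1 GC boxes. Another of the Lef1 windows, not printed here, held 2 cores and no GC box. GC content was 85.2% for Wnt4, 76.4% for Fzd9, 72.8% for Fzd4, 51.2% for Fzd1, 69.2% for Axin2 and 66.4% for Lef1. Over the 41 windows listed for 32 members, 14.6% held a TCF/LEF core, against 13.8% of all 32851 windows of this length. A GC box stood in 75.6% of the members' windows and in 32.7% of all, and the median GC content was 68% against 52.4%. Matches of letters are not binding sites, and genes can share several windows.

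Of the 48 members, 32 were at or above 1 CPM in both libraries, where 41.3% of all listed genes were. At or above 10 CPM in both were 19, where 28.3% of all listed genes were. The median member stood at 4.19 CPM in IP1 against 4.59 CPM in IP2, where the median of all listed genes was 0.18 and 0.096 CPM. Of the listed genes, 12951 had no count in either library, as had 4 of the members. Among genes with at least 1 count, 68.7% were at or above 1 CPM in both libraries and 47.0% at or above 10 CPM. The median of those genes, 9.52 CPM in IP1 and 9.20 CPM in IP2, was above that of the members. The members below 1 CPM in both libraries numbered 11, of which 9 were ligands and the other 2 were Dkk1 and Dkk4. All members of the LRP, β-catenin and Axin, and TCF/LEF groups reached 10 CPM in both.

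**Figure D1:**
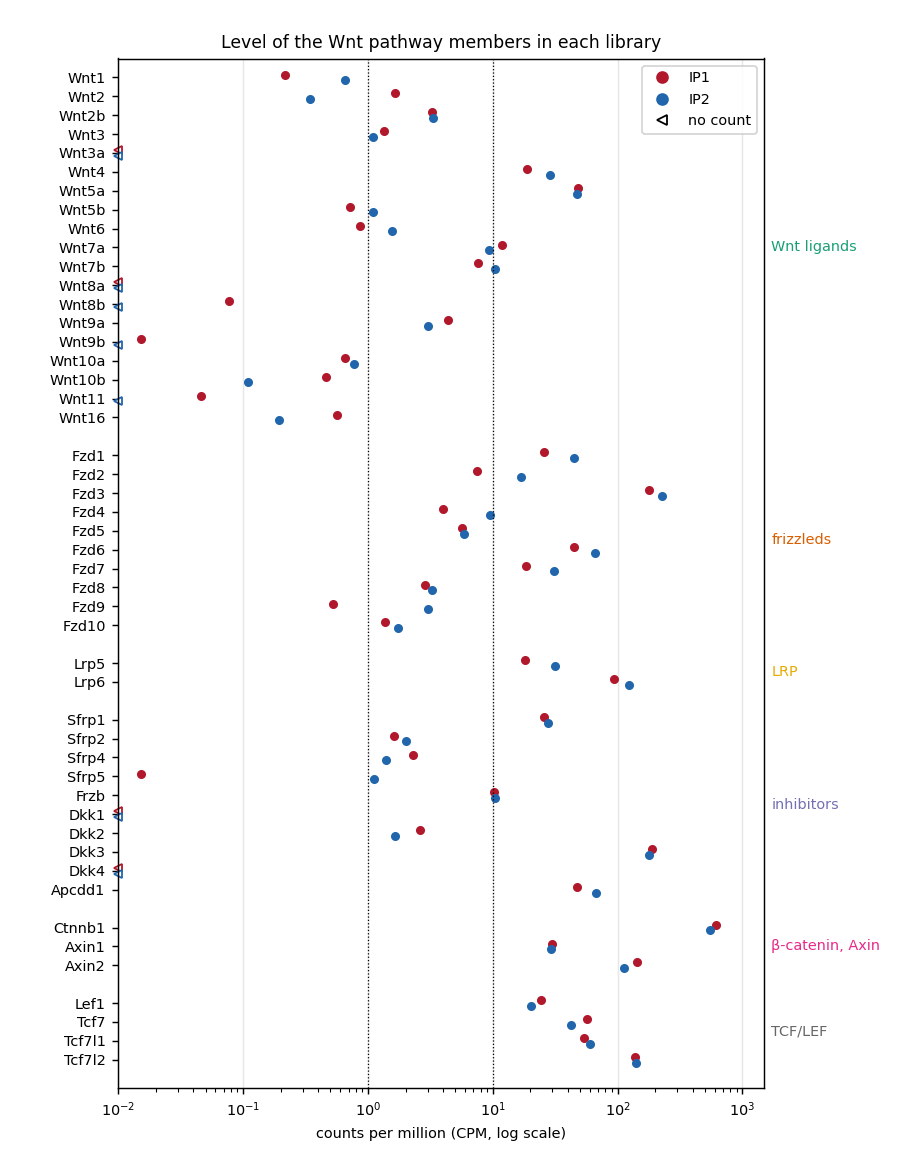
Level of each of the 48 members in CPM on a log axis, with IP1 in red and IP2 in blue; open triangles at the left edge mark libraries with no count and dotted lines mark 1 and 10 CPM. Most ligands lie left of 1 CPM in at least 1 library, while the β-catenin, Axin and TCF/LEF genes all lie right of 10 CPM.

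Of the 19 ligand genes, 7 were at or above 1 CPM in both libraries and 2 at or above 10 CPM. Wnt5a (chromosome 14, 28504543 to 28527448), known mainly for signalling without β-catenin, had 3118 counts in IP1 and 3466 in IP2, which is 47.8 and 47.7 CPM. Its mean was 47.7 ± 0.12 CPM (SD, n = 2), so the libraries were nearly level. Wnt4 (chromosome 4, 137277635 to 137299501), a ligand known for roles in kidney and reproductive tract development, had 1224 counts (18.8 CPM) in IP1 and 2072 (28.5 CPM) in IP2, a mean of 23.6 ± 6.87 CPM. IP1 was the lower library for Wnt4.

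The ligands of the brain endothelial axis stood near 10 CPM. Wnt7a had 11.9 CPM in IP1 against 9.34 CPM in IP2, and Wnt7b had 7.58 CPM in IP1 against 10.4 CPM in IP2. The order of the libraries thus differed between these genes. Wnt9a (4.37 and 3.01 CPM in IP1 and IP2), Wnt2b (3.25 and 3.31 CPM) and Wnt3 (1.33 and 1.10 CPM) were also above 1 CPM in both. Wnt2, Wnt5b and Wnt6 passed 1 CPM in a single library.

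Ligand genes below 1 CPM in both libraries were Wnt1, Wnt10a, Wnt10b, Wnt16, Wnt8b, Wnt9b, Wnt11, Wnt3a and Wnt8a. Wnt8b had 5 counts in IP1 and 0 in IP2, Wnt11 had 3 and 0, and Wnt9b had 1 and 0. Wnt3a, which marks the embryonic cortical hem, and Wnt8a had no count in either library. At this depth neither was detectable.

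All 10 frizzled genes were counted, 9 of them at 1 CPM or more in both libraries and 4 at 10 CPM or more. Fzd3 (chromosome 14, 65192441 to 65262463), a receptor used in axon guidance and planar polarity, had 11550 counts (177 CPM) in IP1 and 16398 (225 CPM) in IP2, a mean of 201 ± 34.2 CPM (SD, n = 2). Fzd6, a planar polarity receptor closely related to it, had 2941 counts (45.1 CPM) in IP1 and 4799 (66.0 CPM) in IP2. Fzd1 had 1673 counts (25.7 CPM) in IP1 and 3243 (44.6 CPM) in IP2. Each of these was lower in IP1.

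Fzd7 followed the same order, with 1210 counts (18.6 CPM) in IP1 and 2235 (30.7 CPM) in IP2. Fzd2 had 491 counts (7.53 CPM) in IP1 and 1216 (16.7 CPM) in IP2. Fzd4, the receptor of Norrin in vessels of the retina and brain, had 262 counts (4.02 CPM) in IP1 and 689 (9.47 CPM) in IP2. Its gene overlaps Tmem135, which leaves part of its reads uncertain. Fzd5 (5.71 CPM in IP1, 5.87 CPM in IP2) and Fzd8 (2.88 and 3.26 CPM) differed little. Fzd10 was lower in IP1, on few counts, at 90 (1.38 CPM) against 127 (1.75 CPM) in IP2. Fzd9, at 34 counts (0.52 CPM) in IP1 and 220 (3.02 CPM) in IP2, was the frizzled below 1 CPM in a library.

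The co-receptor genes were both above 10 CPM. Lrp6 (chromosome 6, 134446476 to 134566913) had 6064 counts (93.0 CPM) in IP1 and 9053 (124 CPM) in IP2, a mean of 109 ± 22.2 CPM (SD, n = 2). Lrp5 had 1179 counts (18.1 CPM) in IP1 and 2284 (31.4 CPM) in IP2. Both stood lower in IP1, as the frizzleds did.

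Among the inhibitors, 4 of 10 reached 10 CPM in both libraries. Dkk3 (chromosome 7, 112116019 to 112159482), a divergent Dickkopf protein expressed by cortical neurons that, unlike Dkk1, is not an established LRP blocker, had 12280 counts (188 CPM) in IP1 and 13060 (179.6 CPM) in IP2. Apcdd1, a membrane protein that binds Wnts and LRP5 and is itself a Wnt target, had 3063 counts (47.0 CPM) in IP1 and 4840 (66.5 CPM) in IP2. Sfrp1, a secreted frizzled-related protein that binds Wnts, had 1680 counts (25.8 CPM) in IP1 and 2033 (27.95 CPM) in IP2. Frzb, of the same family, had 662 counts (10.2 CPM) in IP1 and 751 (10.3 CPM) in IP2. Dkk3, Sfrp1 and Frzb were close between the libraries, and Apcdd1 was lower in IP1.

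The other inhibitors were below 10 CPM in both libraries. Dkk2 had 2.62 CPM in IP1 against 1.64 CPM in IP2, Sfrp4 had 2.29 and 1.39 CPM, and Sfrp2 had 1.61 and 2.01 CPM. Sfrp5 had 1 count in IP1 and 81 in IP2. Dkk1 and Dkk4, whose proteins block LRP5 and LRP6, had no count in either library.

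Inside the cell, Ctnnb1 (chromosome 9, 120933400 to 120960507), which encodes β-catenin and serves in cell junctions as well as in Wnt signalling, had 40363 counts (619 CPM) in IP1 and 39922 (549 CPM) in IP2, a mean of 584 ± 49.6 CPM (SD, n = 2). Axin1, the constitutive scaffold, had 1945 counts (29.8 CPM) in IP1 and 2116 (29.1 CPM) in IP2. Axin2 (chromosome 11, 108917828 to 108950783), whose transcription rises with β-catenin signalling, had 9372 counts (144 CPM) in IP1 and 8111 (112 CPM) in IP2. Ctnnb1 and Axin2 were higher in IP1, while Axin1 was level.

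Of the TCF/LEF factors, which carry β-catenin on DNA, Tcf7l2 had 8936 counts (137 CPM) in IP1 and 10265 (141 CPM) in IP2. Tcf7l1, known mostly as a repressor, had 3514 counts (53.9 CPM) in IP1 and 4334 (59.6 CPM) in IP2. Tcf7 had 3702 counts (56.8 CPM) in IP1 and 3091 (42.5 CPM) in IP2; its gene overlaps that of Skp1. Lef1 had 1594 counts (24.4 CPM) in IP1 and 1471 (20.2 CPM) in IP2. Tcf7 and Lef1, both known as Wnt targets in other tissues, were higher in IP1, and the other two were higher in IP2.

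The reads of IP1 were then set against those of IP2 for each gene, by an exact binomial test (two-sided) on TMM-scaled sizes with Benjamini-Hochberg adjustment over 17306 genes with 10 or more counts. Of the members, 41 of 48 met that minimum. Calls required a 2-fold or larger ratio and an adjusted p under 0.05. The test holds counting error only and compares these libraries, which are of the same group. In all, 17.5% of the genes tested were called, 10.3% higher in IP1 and 7.25% higher in IP2, and 8 members were called, 3 higher in IP1 and 5 higher in IP2. The members' share was thus near that of all genes. Calls were commoner at low levels. Of 9656 genes averaging 10 CPM or more, 42 were called higher in IP1 and 120 higher in IP2. Of 4300 genes averaging 1 to 10 CPM, 462 and 403 were. Most calls over all genes were thus on genes averaging below 1 CPM, as were the calls of Wnt1, Wnt2, Wnt10b, Wnt16 and Sfrp5.

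Of the frizzled genes, 3 of 10 were called, all higher in IP2. Fzd9 had a log2 ratio of IP1 over IP2 of -2.57 (95% counting interval -3.16 to -2.06; adjusted exact p = 6.25e-31). Fzd4 was at -1.29 (-1.50 to -1.08; adjusted exact p = 1.49e-37) and Fzd2 at -1.20 (-1.36 to -1.05; adjusted exact p = 7.44e-59). Of the inhibitors, Sfrp5 was called, with 1 count in IP1 against 81 in IP2 (adjusted exact p = 1.72e-21). Its level was 75.3-fold higher in IP2, with a counting interval from 13.1 to 3012.

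The called ligands were all below 1 CPM in at least 1 library. Wnt1, at 0.21 CPM in IP1 against 0.66 CPM in IP2, was higher in IP2 (log2 ratio -1.64; adjusted exact p = 0.000104). Wnt2 had 1.64 CPM in IP1 against 0.34 CPM in IP2 (log2 ratio 2.18; adjusted exact p = 2.82e-14). Wnt10b had 0.46 CPM in IP1 against 0.11 CPM in IP2 (log2 ratio 1.95; adjusted exact p = 0.000232), and Wnt16 had 0.57 CPM in IP1 against 0.19 CPM in IP2 (log2 ratio 1.48; adjusted exact p = 0.00101). These ligands thus went both ways, at low levels. With an assumed coefficient of variation of 0.2 in the edgeR exact test, Wnt1, Wnt10b and Wnt16 were no longer called.

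**Figure D2:**
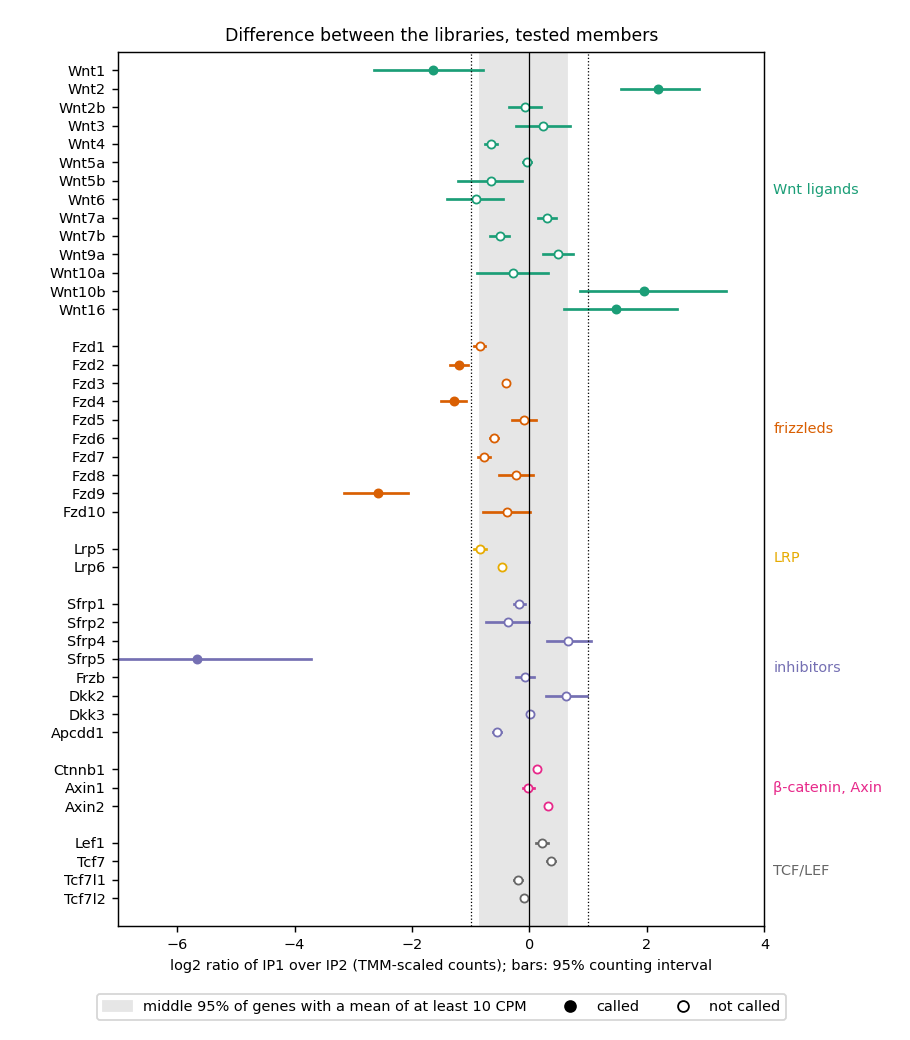
Log2 ratio of IP1 over IP2 for the 41 members tested, by role, with 95% counting intervals; filled circles are called members, dotted lines mark a ratio of 2, and the grey band holds the middle 95% of genes averaging 10 CPM or more (-0.85 to 0.63). All 10 frizzleds and both LRP genes lie left of 0, the side of IP2, and the interval of Sfrp5 runs past the left edge.

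All 10 frizzled genes and both LRP genes had a log2 ratio of IP1 over IP2 below 0, where 49.6% of all genes tested did. Of genes averaging 10 CPM or more 53.7% did, and of those averaging 1 to 10 CPM 47.3% did. The 12 ratios ran from -2.57 to -0.09 with a median of -0.69, against 0.004 over all genes tested. By the adjusted p alone, 9 of the 12 were higher in IP2, where 37.6% of all genes were, and Fzd5, Fzd8 and Fzd10 did not pass. Higher in IP2 by the same measure were 4283 of the 9656 genes averaging 10 CPM or more. Of the 4300 averaging 1 to 10 CPM, 1420 were. The 3 called and Fzd1 (-0.85), Lrp5 (-0.85), Fzd7 (-0.78) and Fzd6 (-0.60) had a ratio of at least 1.5. At that ratio 12 members were higher in IP2, where 14.1% of all genes were, and 5 were higher in IP1, where 15.4% were. The direction of these 12 receptors held under scaling by total counts and by DESeq2 size factors for the 11 at or above 1 CPM in both libraries. IP1 and IP2 are of 1 group, and their common coefficient of variation (0.275) comes from these same differences, so the direction has no independent replicate check.

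Among the 9656 genes averaging 10 CPM or more, the middle 95% lay between -0.85 and 0.63. Of the 21 members at that level, Fzd2 lay below that range and 0 lay above it. Fzd1 and Lrp5 stood at its lower edge, which their counting intervals (-0.94 to -0.76 and -0.95 to -0.75) include. Of the 13 members with a mean of 1 to 10 CPM, Fzd9 was below the wider range at that level, -1.69 to 1.85.

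**Figure D3:**
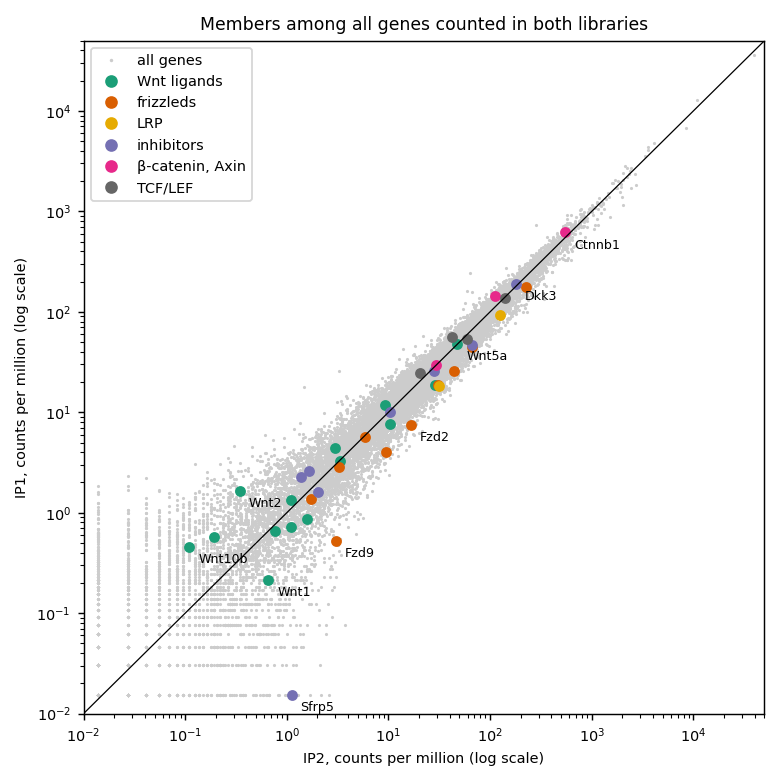
Level of every gene counted in both libraries, IP1 on the vertical and IP2 on the horizontal axis in CPM on log scales; grey points are all genes, coloured points are members by role and the line marks equal levels. The frizzled and LRP genes lie below the line, the side of IP2, and Sfrp5, with 1 count in IP1, lies farthest from it.

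The members inside the cell showed smaller ratios, and 0 of 7 were called. Their log2 ratios ran from -0.20 (Tcf7l1) to 0.36 (Tcf7), short of the ratio required for a call. Neither the exact binomial test nor the edgeR exact test with either assumed variation could therefore have called them, whatever the p-value. All 7 averaged 10 CPM or more. Of the 9656 genes at that level, the exact binomial test called 42 higher in IP1 and 120 higher in IP2, so calls were rare there. By the adjusted p alone, which 38.2% of all genes passed on the IP1 side, Ctnnb1 (log2 ratio 0.12), Axin2 (0.31), Lef1 (0.22) and Tcf7 (0.36) were higher in IP1. Tcf7l1 (-0.20) and Tcf7l2 (-0.10) were higher in IP2, and Axin1 (-0.02; adjusted exact p = 0.753) did not pass. Of the inhibitors counted in both libraries at 1 CPM or more, Apcdd1 (-0.56) and Sfrp1 (-0.17) were higher in IP2 by the adjusted p, and Sfrp4 (0.66) and Dkk2 (0.63) were higher in IP1. Frzb, Sfrp2 and Dkk3 did not pass.

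Levels of cell type markers also differed between the libraries, in both directions. Of all genes tested, 49.6% had a ratio below 0. Markers of astrocytes, 7 of 7 with a ratio below 0, summed to 1373 CPM in IP1 against 2439 CPM in IP2. Fibroblast markers, 8 of 8 below 0, summed to 2437 CPM in IP1 against 3584 CPM in IP2. Pericyte markers, 5 of 8 below 0, summed to 1513 CPM in IP1 against 2040 CPM in IP2, while pan-mural markers, 4 of 7 below 0, summed to 6209 CPM in IP1 against 5228 CPM in IP2. Oligodendrocyte precursor markers, 5 of 7 below 0, summed to 2344 CPM in IP1 against 2906 CPM in IP2. Oligodendrocyte markers, 4 of 7 below 0, summed to 2049 CPM in IP1 against 2194 CPM in IP2. Excitatory neuron markers, 1 of 6 below 0, summed to 1638 CPM in IP1 against 1441 CPM in IP2. Inhibitory neuron markers, 2 of 6 below 0, summed to 938 CPM in IP1 against 912 CPM in IP2. Pan-neuronal markers, 3 of 5 below 0, summed to 14294 CPM in IP1 against 12276 CPM in IP2, and arterial smooth muscle markers, 4 of 5 below 0, to 668 CPM in IP1 against 604 CPM in IP2. Endothelial markers, 5 of 8 tested below 0, summed to 65.2 CPM in IP1 against 61.3 CPM in IP2, with Cldn5 at 5 counts in IP1 and 0 in IP2. Microglial markers, 6 of 7 below 0, summed to 29.2 CPM in IP1 against 34.8 CPM in IP2. Ependymal and choroid plexus markers, 4 of 5 tested below 0, summed to 24.8 CPM in IP1 against 31.5 CPM in IP2. Of these, Otx2 (1 count in IP1, 40 in IP2) and Ttr (4 and 37) were called higher in IP2, while Foxj1 (163 and 89) went the other way. Single genes made most of some sums: Snap25 of the pan-neuronal list (12770 CPM in IP1, 10795 CPM in IP2) and Rgs5 of the pan-mural list (4841 and 4061 CPM). So did Slc1a2 of the astrocyte list (1158 and 2028 CPM) and Apod of the fibroblast list (1712 and 2446 CPM). In the pan-neuronal, pan-mural, smooth muscle and endothelial lists the sum was higher in IP1 though most genes tested had a ratio below 0. The sums therefore do not measure cell type content. The part of these markers in the ratios of the receptors was not tested.

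**Figure D4:**
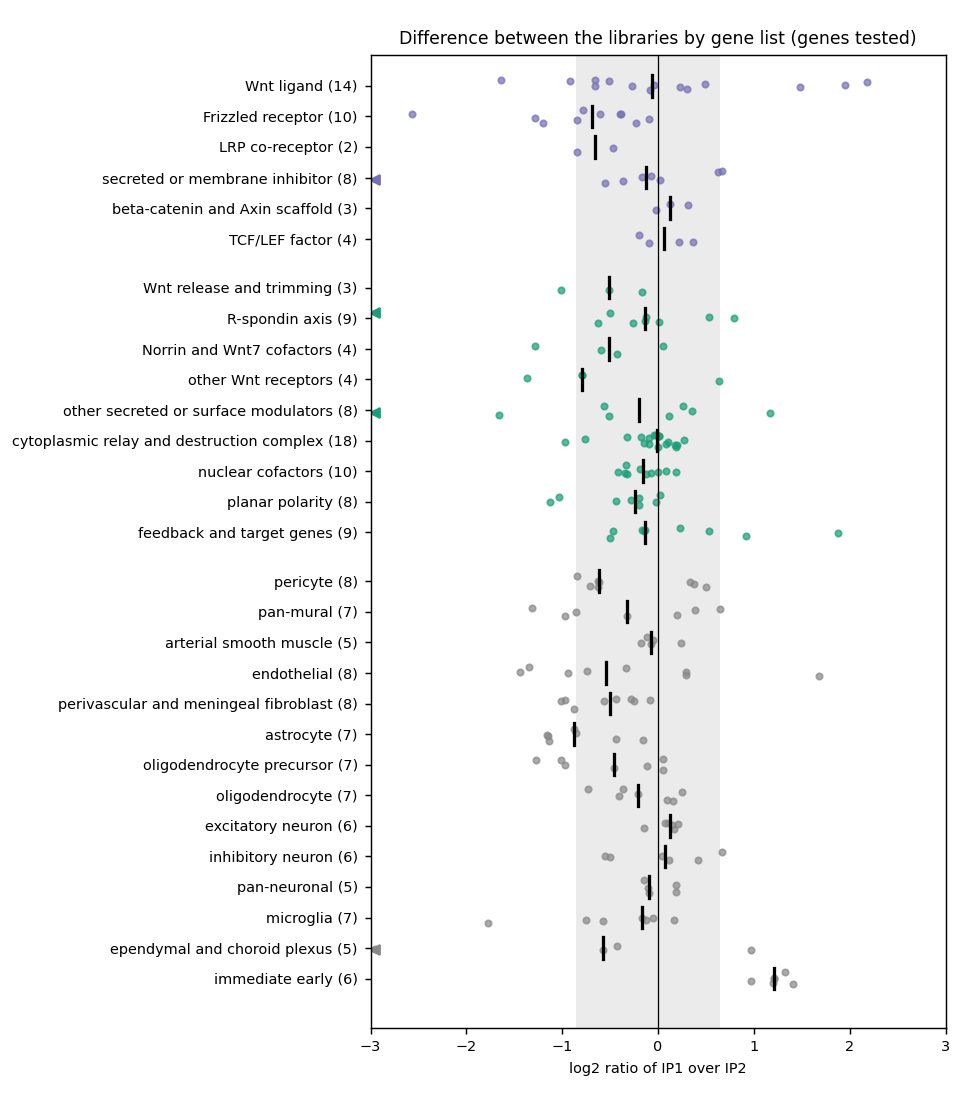
Log2 ratio of IP1 over IP2 for each gene tested, by list, with the number tested in brackets; black ticks are list medians, the grey band holds the middle 95% of genes averaging 10 CPM or more, and triangles at the edge are genes beyond the axis. The frizzled list, the other Wnt receptors and the astrocyte markers lie mostly left of 0, and the immediate early genes lie right of it.

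The wider pathway was read from 9 lists of 68 different genes, of which 40 reached 10 CPM in both libraries. Wnt release genes were counted in both: Wls, the carrier of Wnts to the cell surface, had 19.7 CPM in IP1 against 27.1 CPM in IP2, and Porcn, which acylates Wnts, had 13.9 CPM in IP1 against 27.2 CPM in IP2. Notum, which removes that lipid, had 1.55 CPM in IP1 against 1.68 CPM in IP2. R-spondin signalling, which protects frizzleds from the ubiquitin ligases Znrf3 and Rnf43, reached 10 CPM in both libraries with 3 of 9 genes. They were Znrf3 (47.8 CPM in IP1, 65.4 CPM in IP2), Rnf43 (22.8 and 24.3 CPM) and the R-spondin receptor gene Lgr4 (17.1 and 19.7 CPM).

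Of the Norrin and Wnt7 cofactors, Tspan12 had 40.6 CPM in IP1 against 52.5 CPM in IP2. Reck had 17.6 CPM in IP1 against 25.6 CPM in IP2, and Adgra2, its partner in Wnt7 reception, had 9.13 CPM in IP1 against 21.4 CPM in IP2. Each was lower in IP1. Ndp, the gene of Norrin itself and also in this list, was slightly higher there (9.02 CPM, against 8.41 CPM in IP2). Its log2 ratio of 0.047 did not pass by the adjusted p. Of the 4 other Wnt receptors, 3 were lower in IP1: Ryk at 32.6 CPM in IP1 against 54.6 CPM in IP2, Ptk7 at 4.79 and 8.02 CPM, and Ror1, a receptor of Wnt5a, at 3.62 and 9.02 CPM. Ror2 went the other way, at 2.24 CPM in IP1 against 1.39 CPM in IP2. The further surface modulators included Kremen1 at 9.77 CPM in IP1 against 13.4 CPM in IP2, Tpbg at 9.11 and 8.13 CPM, and Dkkl1 at 2.29 and 3.27 CPM.

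Of the cytoplasmic relay and destruction complex, 16 of 18 genes reached 10 CPM in both libraries and 0 were called. Their log2 ratios ran from -0.97 to 0.27, short of a ratio of 2. No p-value of the exact binomial or the edgeR exact test could therefore have called them. Of the 9656 genes averaging 10 CPM or more, the exact binomial test called 42 higher in IP1 and 120 higher in IP2. By the adjusted p alone 4 of the 18 were higher in IP1 and 8 in IP2, where 38.2% and 37.6% of all genes tested were. Gsk3b, a kinase that marks β-catenin for destruction, had 1238 CPM in IP1 against 1126 CPM in IP2. Apc, its scaffold partner, had 414 CPM in IP1 against 412 CPM in IP2, and Tnks2, which triggers Axin turnover, had 249 CPM in IP1 against 256 CPM in IP2. Nuclear cofactors reached 10 CPM with 9 of 10 genes, among them Bcl9 (143 CPM in IP1, 121 CPM in IP2), Bcl9l (82.3 and 99.6 CPM) and the corepressor gene Tle4 (90.3 and 91.4 CPM).

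In the planar polarity list, 5 of 8 genes reached 10 CPM in both libraries. Daam1 had 229.5 CPM in IP1 against 217.6 CPM in IP2, Prickle2 had 172 and 202 CPM, and Celsr2 had 66.9 and 87.7 CPM. Of the feedback and target genes, 5 of 9 reached 10 CPM in both. Ccnd1, the cyclin D1 gene, had 423 CPM in IP1 against 348 CPM in IP2, Nkd1 had 83.3 and 89.1 CPM, and Tnfrsf19 had 66.3 and 88.2 CPM.

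Between the libraries 10 of the 68 wider genes were called, 2 higher in IP1 and 8 higher in IP2, where 17.5% of all genes tested were, 10.3% higher in IP1 and 7.25% higher in IP2. The 10 are named because they passed. Those higher in IP2 were Porcn (log2 ratio -1.02), Adgra2 (-1.28), Ror1 (-1.37), Vangl2 (-1.13), Celsr1 (-1.04), Draxin (-1.66), Rspo4 and Sost. Porcn and Celsr1 missed the ratio of 2 with total counts, and 6 of the 10 were called with an assumed coefficient of variation of 0.2. Rspo4 had 0 counts in IP1 against 77 (1.06 CPM) in IP2, and Sost had 0 counts in IP1 against 22 (0.30 CPM) in IP2, where the limit for 0 counts in IP1 is 0.046 CPM. Those higher in IP1 were Sp5, a direct Wnt target gene, at 3.01 CPM in IP1 against 0.78 CPM in IP2 (log2 ratio 1.88), and the inhibitor gene Wif1, at 0.52 and 0.22 CPM (1.17). Myc, named after its value was seen, was at 15.6 CPM in IP1 against 7.95 CPM in IP2 (0.92), short of a ratio of 2. Immediate early genes, induced by activity and by handling of tissue, lay on the same side as Sp5 and Myc. A ratio above 0, which 50.4% of all genes had, was found for 6 of 6, and they summed to 1086 CPM in IP1 against 422 CPM in IP2. Their part in the ratios of Sp5, Myc, Axin2 and Lef1 was not tested.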

How the data were processed

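Ribosome-bound RNA was sequenced in 2 libraries of 1 group. Reads were aligned with STAR 2.0.0e to mm10 and counted with HTSeq, per the submitters' processing notes; annotation and strandedness are not stated in the labels or files. The authors deposited raw counts per gene symbol, 1 file a library. Rows that name no gene did not enter library sizes or tests; genes held 58.1% (IP1) and 57.7% (IP2) of listed reads. Reads matching several genes (1.64% and 1.60%) or places were not assigned, so 20 members whose RefSeq span overlaps another gene, 6 of them a protein-coding one (Wnt2b, Wnt3, Wnt5b, Wnt9b, Fzd4 and Tcf7), may be undercounted. Without a known strand setting, antisense reads cannot be told apart.

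CPM used the total of gene counts. The libraries differed beyond counting error (chi-square of 88.9 per degree of freedom) and were kept as 2 samples; edgeR gave a common coefficient of variation of 0.275 on 15429 genes. P-values measure only the reads of these libraries. The exact binomial test used TMM sizes (factors 1.02 for IP1 and 0.982 for IP2) from edgeR 4.0.16, and log2 ratios of IP1 over IP2 had a prior of 0.5 counts. Exact (Clopper-Pearson) 95% intervals and limits from 3 counts cover counting error only, since reads without molecular identifiers are not independent molecules. DESeq2 1.42.0 gave alternative size factors. The test was checked on simulated counts that held counting error only. That check cannot tell how the test behaves at the wider spread of these libraries. R 4.3.3, Python 3.11.15, numpy 2.4.6, pandas 2.3.3, scipy 1.17.1 and matplotlib 3.10.9 were used.

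Members and lists were chosen with earlier results of these data known. Members at 10 CPM in both libraries were to be given with counts, those under 1 CPM by name, and the 3 highest genes of each wider list by CPM; the list gene Gpr124 was read under its newer symbol Adgra2. Levels per kilobase and protein sequences had been planned and were not used here, since the reference tables hold no transcript or coding lengths and no proteins. RefSeq tables on GRCm38.p6, the assembly of mm10, matched all 48 members for position and 32 for a promoter window.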

Additional observations from a re-analysis of the deposited data

How the results depend on the processing

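Of 48 members, 32 reached 1 CPM in both libraries under each scaling tried, 36 at a threshold of 0.5 CPM, and 33 to 36 with 1 library alone. The count at 10 CPM was 19, and 18 to 19 under other scalings, 23 at 5 CPM and 20 to 21 in 1 library alone. The members' median was 4.39 CPM, and 4.19 to 4.59 CPM in 1 library alone. For the wider pathway, with alternatives chosen after seeing the data, 40 genes reached 10 CPM in both libraries, and 41 to 44 did in 1 library alone.

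The 8 called members were 8 with total counts, with DESeq2 size factors and with an assumed coefficient of variation of 0.1. They were 9 without the filter (Wnt8b added), 17 at a ratio of 1.5 (29.5% of all genes) and 5 with an assumed variation of 0.2 (11.7% of all genes). Both assumed values lie below the 0.275 that edgeR estimated from these libraries. The 10 called wider genes became 8 with total counts, under which Porcn and Celsr1 missed the ratio of 2, 18 at a ratio of 1.5 and 6 with an assumed variation of 0.2. The larger count follows from the lower ratio and the smaller one from the wider error. Of all calls, 58.6% were on the IP1 side, 61.5% with total counts and 52.2% at a ratio of 1.5. With total counts the log2 ratios of Axin1 (0.036) and Wnt5a (0.0051) changed sign, and the other 30 members at 1 CPM in both libraries kept their sign; all 32 did with DESeq2 size factors. Total counts moved the median log2 ratio of all genes to 0.06.

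No paired analysis was possible because the libraries form a single group. Calls with a library left out were not made, since 1 library gives no ratio. Levels per kilobase were not run. The depth sets an upper limit of 0.046 CPM for genes at 0 counts.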

Other observations

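Several Wnt genes lie next to another Wnt gene, and their levels were set side by side, as a description without a test. Within 200000 bases there were 4 neighbouring pairs. Wnt3a and Wnt9a, 16097 bases apart on chromosome 11, had 0 counts in both libraries for Wnt3a, and 285 in IP1 and 219 in IP2 for Wnt9a. Wnt9b and Wnt3, whose annotated spans overlap on chromosome 11, had 1 count in IP1 and 0 in IP2 for Wnt9b, and 87 in IP1 and 80 in IP2 for Wnt3. Wnt6 and Wnt10a, 6696 bases apart on chromosome 1, had 56 counts in IP1 and 114 in IP2 for Wnt6, and 43 in IP1 and 56 in IP2 for Wnt10a. Wnt10b and Wnt1, 11650 bases apart on chromosome 15, differed between the libraries in opposite directions, with 30 counts in IP1 and 8 in IP2 for Wnt10b, and 14 in IP1 and 48 in IP2 for Wnt1.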
